A study of Pelodiscus sinensis with 18 samples.

Results

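Erythropoietin (EPO) and 5 genes of the oxygen-sensing pathway around it, HIF1A, EPAS1, EGLN1, EGLN3 and VEGFA, were followed in a soft-shelled turtle, Pelodiscus sinensis, through its liver and gut. The 6 genes were picked by name from a table of 24880 features, and all 6 were present. They were chosen with one earlier result of these data in view, a higher EPO level in livers at the lower dose. That contrast is therefore described here without a test for any of the 6 genes.

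When oxygen is plentiful, prolyl hydroxylases of the EGLN family mark the alpha subunits of hypoxia-inducible factor (HIF) for destruction through the von Hippel-Lindau protein. When oxygen falls, the subunits persist and switch on genes such as EPO, which drives red cell production, and VEGFA, which drives blood vessel growth. HIF alpha subunits are controlled largely at the protein level, which RNA does not show, and in mammals the liver is a source of EPO beside the kidney.

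Turtles labelled wild type were either left unexposed (control) or exposed to niclosamide, a drug against tapeworms and a snail poison that uncouples mitochondrial respiration. The lower dose was 10 µg per L, called nic10 here, and the higher 50 µg per L, called nic50. Liver and gut were each sampled at every dose. Each of the 6 groups held 3 libraries, 18 in all. The sources used here do not say how long the exposure lasted, how old the turtles were, or whether libraries with different numbers are different animals. A p-value here weighs a difference against the spread between libraries, and that spread may be technical.

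Levels are in FPKM, read fragments per kilobase of transcript, relative to the size of the library. They can be compared between genes within a library, while a comparison between libraries, and above all between tissues, also depends on how the libraries are scaled. The sequencing depth behind them is unknown. Differences are on the log2(FPKM + 1) scale and were tested with limma. A gene passed the test where its p, adjusted over all genes, was under 0.05. Marker genes bore out the tissue labels: the 12 hepatocyte markers summed to between 75007 and 100327 FPKM in liver, and the enterocyte markers to between 471 and 9485 FPKM in gut against at most 99.7 FPKM in liver. A set of 21 features stood at a summed 124 to 156 FPKM in control livers 2 and 3, control guts 1 and 2 and nic50 gut 3, and at no more than 1.76 FPKM in the other 13 libraries. Control liver 1 is thus the only control liver that is like the 6 exposed livers in this set, so the liver contrasts with control of the members and of the pathway genes that passed are also given against control liver 1 alone. Correlations across genes within a group were 0.992 to 0.994 for nic50 livers, 0.964 to 0.993 for control livers and 0.946 to 0.975 for nic10 livers.

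EPO, the hormone itself, was a liver transcript in these turtles. In control livers 1, 2 and 3 it stood at 8.29, 4.20 and 3.56 FPKM, in nic10 livers at 15.8, 17.3 and 24.5 FPKM, and in nic50 livers at 8.47, 8.14 and 9.60 FPKM. All 3 nic10 livers lay above every other liver. Of all genes 9.54% likewise had 3 nic10 livers above the 3 controls, from which nothing is read because this contrast chose EPO. The nic50 livers lay between the nic10 livers and control livers 2 and 3, within reach of control liver 1. In gut it was listed at 0.198, 0 and 0.126 FPKM in controls, at 0.365, 0.146 and 0.467 FPKM at nic10, and at 0.0573, 0.0752 and 0.150 FPKM at nic50, so that no gut library reached 1 FPKM. A value of exactly 0 may be an estimate that failed rather than a measured absence.

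**Figure D1:**
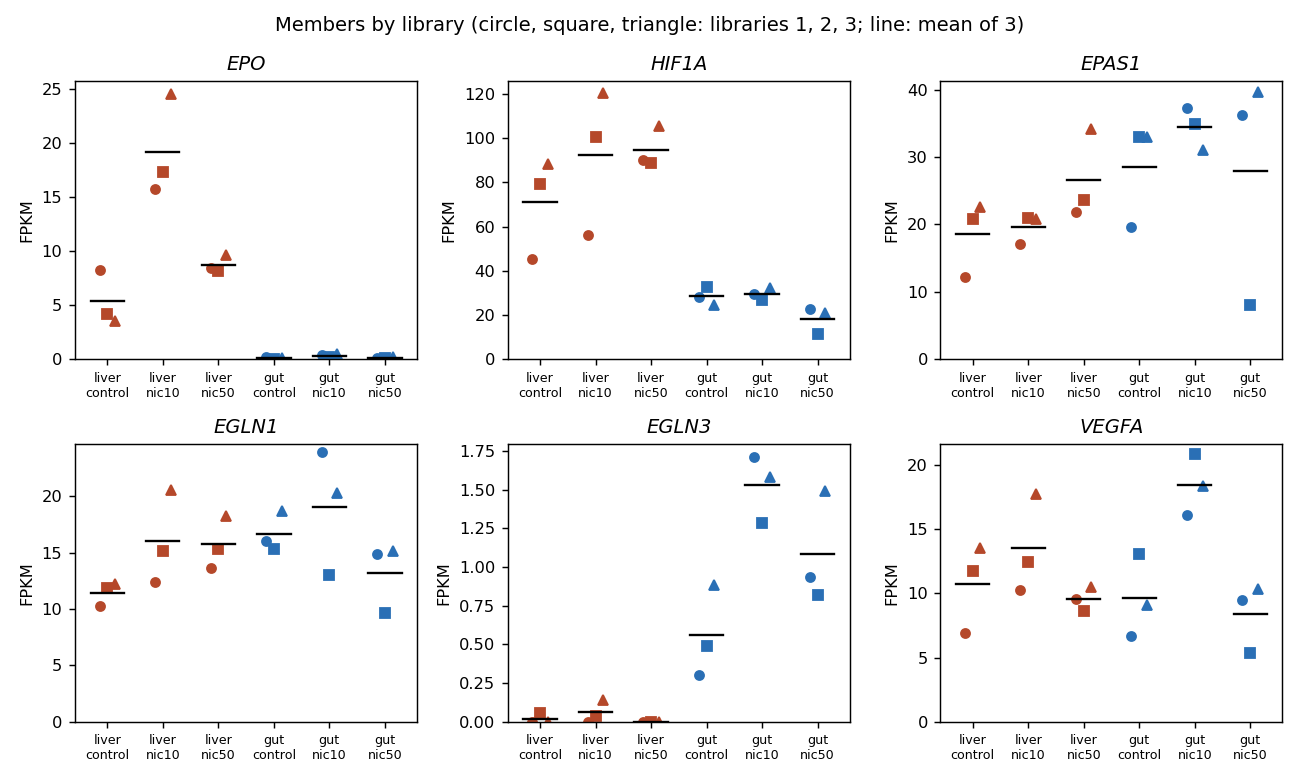
FPKM of the 6 genes in each of the 18 libraries, with liver groups in red, gut groups in blue and a line at the mean of 3 libraries; each panel has its own linear axis that starts at 0. EPO sits above 15 FPKM in all 3 nic10 livers, at 3.56 to 9.60 FPKM in the other 6 livers and below 0.5 FPKM in all guts.

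The mean of EPO was 19.2 ± 4.67 FPKM at nic10 (SD, n = 3), 8.74 ± 0.763 at nic50 and 5.35 ± 2.56 in control livers. The nic10 mean was 3.59 times the control mean, a difference of 1.72 on the log2(FPKM + 1) scale (SE 0.27). From nic10 to nic50 the difference was -1.03 (SE 0.27), and between nic50 and control it was 0.69 (SE 0.27). The order of the doses was therefore not the order of the EPO levels, since the lower dose had the highest level and no nic50 liver reached any nic10 liver, a separation that 8.63% of all genes showed in that direction. These liver values are descriptions, because the choice of EPO rested on them.

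Control liver 1, with more EPO than the other 2 control livers, sets how large the dose differences look. Relative to that library alone the nic10 livers held 1.90, 2.09 and 2.96 times as much EPO, and the nic50 livers 1.02, 0.983 and 1.16 times as much. The log2 difference from control shrank to 1.10 at nic10 and to 0.07 at nic50 when control livers 2 and 3, which carry the 21-feature set, were left out. Leaving out one library at a time gave 1.51 to 2.03 at nic10. Whether the features of this set have a part in the EPO level was not tested.

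The markers of stellate cells and fibroblasts, which in mice include EPO-producing cells, also moved between liver groups. Of 13 symbols 12 were matched, and their summed level was 16.2 to 22.1 FPKM in control livers, 28.3 to 44.7 at nic10 and 46.2 to 72.1 at nic50. The sum was thus highest at nic50, where EPO was not. Of 10 markers tested, 0 passed the test at nic10, where 1.07% of all genes did. At nic50 5 passed as higher, where 3.69% of all genes did. RGS5 was listed at 0 in 5 of 9 livers, and no other marker of the list was at 0 in any liver. In whole tissue, a change in the number of cells of a type and a change in RNA per cell cannot be told apart. The part of these cells in the EPO level was not tested.

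Erythroid markers, which stand for the red cell lineage that EPO acts on, gave little to read. Only 8 of 20 symbols were matched and 3 were tested in liver. The summed level was 11.3 to 59.1 FPKM in control livers, 5.72 to 27.7 at nic10 and 10.6 to 25.3 at nic50, with overlap between all groups. HEMGN, a nuclear protein of blood cell precursors, made up most of the sum, with a mean of 20.2 FPKM over the 9 livers, and KLF1, a master regulator of red cell genes, was listed at 0 in 5 of 9 livers. At nic10 0 of the 3 markers passed the test, and 0 passed at nic50, where 1.07% and 4.71% of all genes did.

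On the annotated assembly, EPO lies between TFR2, a transferrin receptor of hepatocytes, and POP7, a subunit of ribonucleases P and MRP. In nic10 livers TFR2 differed from control by 0.23 on the log2 scale (limma adjusted p = 0.766) and POP7 by 0.51 (adjusted p = 0.241). Neither of the adjacent genes passed the test at this dose, nor at nic50, where TFR2 differed by -0.15 (adjusted p = 0.793) and POP7 by 0.54 (adjusted p = 0.123).

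Among 10891 other genes, those whose log2 levels ran most closely with EPO over the 9 livers were LOC112546082, which has no name (Pearson r = 0.98), C6, a component of the complement attack complex (0.98), the actin-binding gene TRIOBP (0.97), ABRACL (0.97) and TMEM109 (0.97). C6 stood at 78.2, 31.4 and 37.8 FPKM in control livers, at 114.9, 133.1 and 194.7 at nic10 and at 57.4, 64.4 and 65.5 at nic50. As for EPO, control liver 1 was above the other controls and all nic10 livers were on top, but for C6 control liver 1 was also above all nic50 livers. TMEM109 ran from 2.94 to 4.84 FPKM in controls, from 11.6 to 30.2 at nic10 and from 6.21 to 7.12 at nic50. These 9 points fall into 3 dose groups and the genes were ranked after the values were known, so the correlations only describe.

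Livers and guts at nic50 share no library with the contrast that chose EPO. There EPO was higher in liver by 3.15 on the log2(FPKM + 1) scale (SE 0.23, limma adjusted p = 7.21e-09), with 3 of 3 livers above 3 of 3 guts, as for 18.9% of all genes. EPO entered this fit through its liver level, so the same difference was also taken with no filter on level, where the adjusted p was 7.46e-08. Both fits took the spread from all 18 libraries, those that chose EPO among them. These p-values are therefore not independent of that choice. Of all genes 59.6% passed the test in this comparison, 15.2% as higher in liver and 44.4% as lower, with a median log2 difference of -0.46. In controls the difference for EPO was 2.45 (SE 0.23), given without a test.

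HIF1A and EPAS1, which encode the alpha subunits of HIF-1 and HIF-2, differed in how they lay across the tissues. HIF1A was higher in liver, while no tissue difference passed the test for EPAS1. HIF1A was at 45.5, 79.4 and 88.4 FPKM in control livers, 56.2, 100.3 and 120.4 at nic10 and 90.0, 89.0 and 105.5 at nic50. In gut it was at 28.2, 32.8 and 24.4 FPKM in controls, 29.3, 26.7 and 32.0 at nic10 and 22.6, 11.1 and 20.8 at nic50. Every liver lay above every gut. Among all genes 13.6% had control livers above control guts without overlap, and the share over all doses was not computed. In each liver HIF1A was at or above at least 92.0% of the features detected in that library.

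Control livers held 71.1 ± 22.6 FPKM of HIF1A (SD, n = 3) against 28.5 ± 4.18 in control guts, a fold of 2.50 and a log2 difference of 1.25 (SE 0.30, limma adjusted p = 0.00173). At nic50 the livers held 94.8 ± 9.25 FPKM against 18.2 ± 6.17 in guts, a fold of 5.21 and a log2 difference of 2.37 (SE 0.30, adjusted p = 4.74e-06). Most genes leaned the other way, with a median of -0.58 and 64.1% of genes past the test in controls, 12.6% as higher and 51.5% as lower in liver. With control liver 1 as the only control liver the control difference was 0.67 (adjusted p = 0.152) and did not pass. That library had the lowest HIF1A of the 9 livers.

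EPAS1 was at 12.2, 20.7 and 22.6 FPKM in control livers, 17.0, 21.0 and 20.8 at nic10 and 21.8, 23.7 and 34.1 at nic50. In gut it was at 19.6, 33.0 and 32.9 FPKM in controls, 37.3, 35.0 and 31.0 at nic10 and 36.2, 8.001 and 39.7 at nic50. The tissues overlapped, and nic50 gut 2 was far below the other 8 guts. Liver minus gut was -0.60 in controls (95% interval -1.50 to 0.29, limma adjusted p = 0.221) and 0.18 at nic50 (-0.72 to 1.07, adjusted p = 0.734), so a difference of either sign is within the error.

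The HIF1A to EPAS1 ratio, taken within each library, was 3.09 to 5.78 in the 9 livers with a median of 3.83. In the 9 guts it was 0.523 to 1.44 with a median of 0.786. The ranges did not overlap at any dose: HIF1A was the more abundant transcript in all livers, and in gut the pair stood at similar levels. HIF1A alone was already higher in every liver, and how many other gene pairs are apart in this way was not computed. A ratio within a library does not depend on how the library was scaled.

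**Figure D2:**
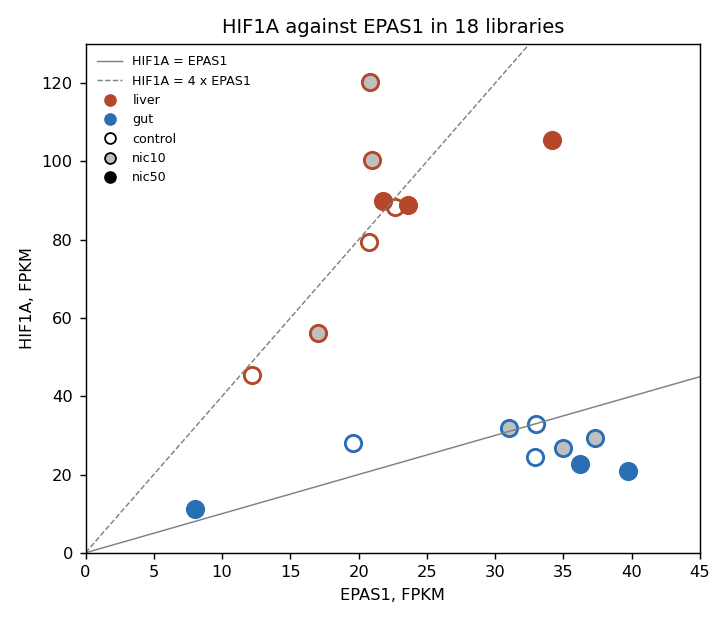
HIF1A against EPAS1 in FPKM, 1 point per library, with tissue as colour and dose as fill; the solid line marks equal levels and the dashed line a HIF1A level 4 times that of EPAS1. The 9 livers lie around the dashed line, with ratios of 3.09 to 5.78, and the 9 guts around the solid line, with ratios of 0.523 to 1.44.

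At nic50 HIF1A leaned opposite ways in liver and gut. All 3 nic50 livers were above all 3 control livers, as for 26.8% of all genes, with a log2 difference of 0.46 (SE 0.31, limma adjusted p = 0.446), and all 3 nic50 guts were below all 3 control guts, as for 7.56% of all genes, with a difference of -0.67 (SE 0.25, unadjusted p = 0.024, adjusted p = 0.699). Neither passed the test. The gut difference was -0.37 without nic50 gut 2, which was the lowest of the 9 guts for HIF1A, EPAS1, EGLN1 and VEGFA and had the highest enterocyte marker sum, 9485 FPKM; the part of those cells was not tested. The difference between the tissue responses was 1.13 (SE 0.42, 95% interval 0.24 to 2.02, unadjusted p = 0.0158, adjusted p = 0.253), which did not pass over all genes. Here 0.987% of genes did.

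At nic10 HIF1A differed from control by 0.36 in liver (SE 0.31), given without a test, and by 0.05 in gut (95% interval -0.51 to 0.61, adjusted p = 0.935). Control liver 1 and nic10 liver 1 were the lowest of the 9 livers for both HIF1A and EPAS1. Against control liver 1 alone the HIF1A difference was 0.94 at nic10 and 1.04 at nic50, and the second did not pass there either.

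EPAS1 at nic50 was 0.52 above control in liver (SE 0.25, limma adjusted p = 0.282), or 1.04 above control liver 1 alone (adjusted p = 0.0835), with nic50 liver 1 inside the control range, and differed by -0.27 in gut (SE 0.51, adjusted p = 0.964). The gut value rests on nic50 gut 2: without it the difference was 0.44. At nic10 it was 0.30 in gut (SE 0.51, adjusted p = 0.796) and 0.12 in liver (SE 0.25), or 0.64 against control liver 1 alone, both liver values given without a test.

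EGLN1, the main hydroxylase that marks HIF alpha, was present in both tissues. It stood at 10.3, 11.9 and 12.2 FPKM in control livers, 12.4, 15.1 and 20.5 at nic10 and 13.7, 15.3 and 18.2 at nic50. In gut it stood at 16.0, 15.3 and 18.7 FPKM in controls, 23.9, 13.0 and 20.3 at nic10 and 14.9, 9.66 and 15.1 at nic50. All 6 exposed livers lay above all 3 control livers, nic10 liver 1 only just, and of all genes 9.54% were likewise above control without overlap at nic10 and 26.8% at nic50. All nic50 guts lay below all control guts, as for 7.56% of all genes, but only just, with nic50 gut 3 at 15.1 FPKM and control gut 2 at 15.3.

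In nic50 livers EGLN1 averaged 15.7 FPKM against 11.4 in controls, a fold of 1.38 and a log2 difference of 0.42 (SE 0.21, 95% interval -0.03 to 0.88, limma adjusted p = 0.282). In nic50 guts the difference was -0.33 (SE 0.25, adjusted p = 0.890), and the difference between tissues was 0.76 (SE 0.32, unadjusted p = 0.0327, adjusted p = 0.346). None of the 3 passed. Without nic50 gut 2 the gut difference was -0.14. Leaving out 1 library at a time gave 0.56 to 0.86 for the difference between tissues. In nic10 livers the difference was 0.43 (SE 0.21), given without a test. Against control liver 1 alone it was 0.57 at nic10 and 0.56 at nic50 (adjusted p = 0.258). Between nic50 and nic10 livers the difference was -0.0041 (95% interval -0.46 to 0.45). Control livers were below control guts in all libraries, as for 56.3% of all genes, by -0.51 (SE 0.23, unadjusted p = 0.0421, adjusted p = 0.0636). That difference did not pass, but it did with library weights (adjusted p = 0.027) and with only the 2 groups compared (0.0338), and it turned to 0.15 after rescaling by trimmed means.

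EGLN3, a second hydroxylase whose transcript is itself a HIF target in mammals, was nearly confined to gut in these libraries. In liver it was listed at 0 in 6 of 9 libraries and reached at most 0.143 FPKM, so it was not tested there. In gut it stood at 0.303, 0.487 and 0.884 FPKM in controls, 1.71, 1.29 and 1.58 at nic10 and 0.937, 0.817 and 1.49 at nic50. All nic10 guts lay above all control guts, as for 15.6% of all genes, and nic50 gut 3 was the only other gut above 1 FPKM.

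EGLN3 differed between nic10 and control guts by 0.71 (SE 0.21, unadjusted p = 0.00783, limma adjusted p = 0.220) and did not pass. It entered the gut fit mainly through its nic10 level, which favours a difference in that direction. Without the filter the adjusted p was 0.225. Liver was below gut by -0.60 in controls (SE 0.16, adjusted p = 0.0046) and by -1.04 at nic50 (SE 0.16, adjusted p = 4.90e-05), and with no filter on level these adjusted p-values were 0.00163 and 1.53e-05. With quantile normalization the control value was -0.32 and did not pass. At such low levels the added 1 FPKM shrinks log2 differences.

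VEGFA, the blood vessel growth factor downstream of HIF, had its highest gut mean at nic10. So did the other members, but HIF1A only by 29.3 against 28.5 FPKM in controls, and EPO at 0.326 FPKM. The share of all genes with this order was not computed, so nothing is read from it. VEGFA stood at 6.70, 13.0 and 9.12 FPKM in control guts, 16.1, 20.9 and 18.4 at nic10 and 9.46, 5.35 and 10.4 at nic50. All 3 nic10 guts lay above all 6 other guts, and 15.6% of all genes had nic10 guts above control guts without overlap. In liver it stood at 6.94, 11.8 and 13.5 FPKM in controls, 10.3, 12.5 and 17.8 at nic10 and 9.55, 8.59 and 10.5 at nic50, where the groups overlapped.

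The nic10 guts held 1.92 times the control mean of VEGFA, a log2 difference of 0.91 (SE 0.28, 95% interval 0.29 to 1.53, unadjusted p = 0.00909, limma adjusted p = 0.230). The nic50 guts held 0.454 times the nic10 mean, a difference of -1.09 (SE 0.28, unadjusted p = 0.00327, adjusted p = 0.188), and 15.2% of all genes were lower there without overlap. Neither passed over all genes. Between nic50 and control guts the difference was -0.18 (SE 0.28, adjusted p = 0.949), and in liver it was -0.11 between nic50 and control (95% interval -0.68 to 0.46, adjusted p = 0.854). Against control liver 1 alone the nic50 liver value turned to 0.41 (adjusted p = 0.393). In nic10 livers VEGFA differed from control by 0.32 (SE 0.26), or 0.84 against that library alone, both given without a test. VEGFA did not separate the tissues in controls, with a log2 difference of 0.14 (95% interval -0.45 to 0.73, adjusted p = 0.669). After rescaling by trimmed means, which moved the median of all genes from -0.58 to -0.06, that difference was 0.78 (adjusted p = 0.0127), and with quantile normalization it was 0.68 (adjusted p = 0.0375), and both passed. The VEGFA level was 23.8% to 78.2% of the HIF1A level in guts and 9.66% to 18.3% in livers.

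Endothelial markers, like VEGFA, had their highest summed level in nic10 guts, although no difference from control passed the test. Of 18 symbols 16 were matched, with a summed level of 52.7 to 54.4 FPKM in control guts, 75.0 to 107.7 at nic10 and 19.7 to 46.1 at nic50, and no marker was at 0 in any library. Of 13 tested, 13 had a positive log2 difference at nic10, with a median of 0.55 against 0.11 for all genes. Of these markers 0 passed the test, where 0.174% of all genes did. Their part in the VEGFA level was not tested. Enterocyte markers summed to 2563 to 2989 FPKM in controls and to 471, 2680 and 1149 FPKM in nic10 guts 1, 2 and 3. Of the enterocyte markers 0 of 11 passed the test at nic10, with 7 at an unadjusted p under 0.05, against 1874 of 12617 genes. VEGFA stood at 16.1, 20.9 and 18.4 FPKM in nic10 guts 1, 2 and 3. The 6 smooth muscle markers tested had a median log2 difference of 0.86 at nic10, and 0 passed. The part of enterocytes and smooth muscle in the VEGFA level was not tested.

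**Figure D3:**
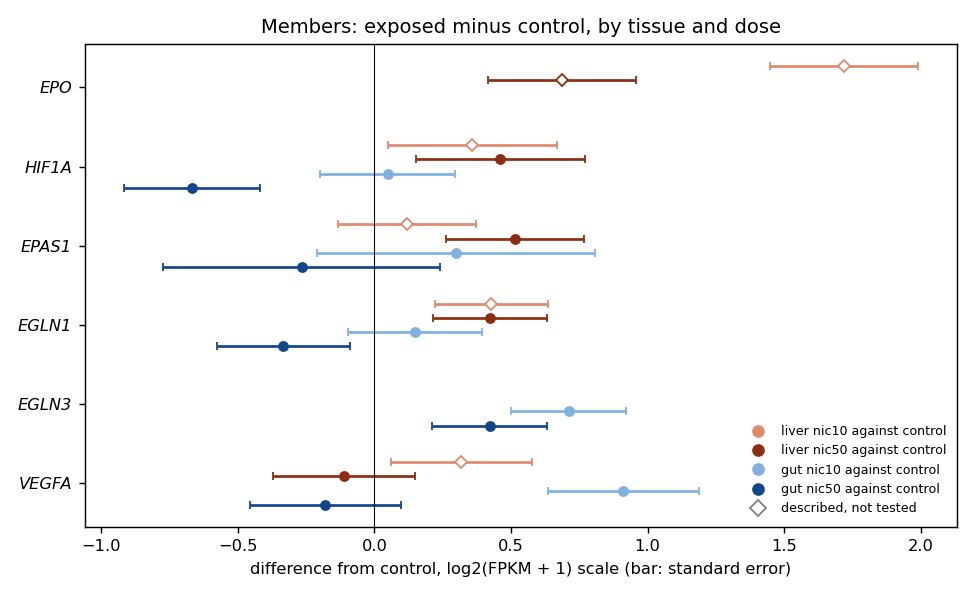
Difference from control on the log2(FPKM + 1) scale for each gene, tissue and dose, with bars of 1 standard error; open diamonds were described and not tested, and genes below the filter in a tissue have no point. EPO in liver lies farthest from 0 at nic10 (1.72), and HIF1A and EGLN1 lie on opposite sides of 0 in nic50 livers (0.46 and 0.42) and nic50 guts (-0.67 and -0.33).

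Counted over the members, 0 of 4 tested in liver passed between nic50 and control with limma, where 4.71% of all genes did. An unadjusted p under 0.05 was held by 0 of the 4, against 2220 of 10892 genes. Between nic50 and nic10 livers 0 of 4 passed (2.53% of genes) and again 0 had such a p, against 2059 of 10892 genes. In gut 0 of 5 passed at nic10, at nic50 and between the doses, against 0.174%, 0.0238% and 0.119% of genes. An unadjusted p under 0.05 was held by 2, 1 and 2 of the 5, against 1874, 820 and 1790 of 12617 genes. In the tests of the tissue difference 0 of 5 passed at either dose (0.364% of genes at nic10 and 0.987% at nic50). Such an unadjusted p was held by 1 and 2 of the 5, against 1325 and 1676 of 13475 genes. Between liver and gut 2 of 5 passed in controls and 3 of 6 at nic50, against 64.1% and 59.6% of genes. There 3 of 5 and 3 of 6 had an unadjusted p under 0.05, against 9103 and 8644 of 13475 genes. EPO is among those at nic50, and its p is not independent of its choice.

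Few of the other genes around EPO and HIF moved past the test. Those that did were in liver, where a larger share of all genes passed than in gut. The 5 lists, for HIF regulators, EPO signalling, angiogenesis, glycolytic targets and other HIF targets, hold 111 symbols, of which 102 were matched and 79 tested in liver. At nic10 2 were higher and 0 lower, where 1.07% of all genes passed and 0.734% as higher. At nic50 5 were higher and 0 lower, where 3.69% of all genes passed as higher. The median log2 difference was 0.12 at nic10, against 0.04 for all genes, and 0.15 at nic50, against 0.13. CISH, ERO1A and PLOD2 were known to have passed when the lists were drawn up.

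In the list of EPO production and signalling, with 12 genes tested, CISH, an inhibitor of cytokine receptor signalling that EPO induces in mammalian cells, stood at 0.851, 2.05 and 2.08 FPKM in control livers, 6.88, 5.39 and 4.96 at nic10 and 13.5, 13.7 and 13.0 at nic50. The 3 groups were fully apart and rose with dose, which EPO did not. Of all genes 9.54% were above control without overlap at nic10 and 26.8% at nic50. The CISH log2 differences were as follows. Its log2 difference was 1.37 at nic10 (SE 0.23, limma adjusted p = 0.0209) and 2.47 at nic50 (SE 0.23, adjusted p = 0.000498), and nic50 exceeded nic10 by 1.10 (adjusted p = 0.0326). Against control liver 1 alone it was 1.85 at nic10 (adjusted p = 0.0457) and 2.96 at nic50 (adjusted p = 0.00321). The call at nic10 was lost in 5 of 17 alternatives: without control liver 2 (adjusted p = 0.0676) or 3 (0.0565), with no filter on level (0.0584), with only the groups compared (0.106) and with alike livers averaged (0.242). At nic50 it was lost in 1 of 17, with alike livers averaged (0.178).

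LYN, a kinase that acts at the EPO receptor, stood at 3.36, 2.44 and 2.21 FPKM in control livers and 4.95, 6.05 and 7.74 at nic50, with all exposed livers above all controls. Of all genes 9.54% were likewise above control without overlap at nic10 and 26.8% at nic50. The difference of 0.98 at nic50 (SE 0.21, limma adjusted p = 0.0302) passed in 1 of 6 fits that left out a library, the one without control liver 1, and in 5 of 16 alternatives in all. It was 0.71 against control liver 1 alone (adjusted p = 0.154). EPOR, the EPO receptor, was at 2.98, 13.8 and 12.1 FPKM in control livers, 6.98, 3.28 and 1.78 at nic10 and 4.99, 3.56 and 5.80 at nic50, and was named after its values were seen. Control liver 1 lay among the exposed livers and the 2 other controls above all of them, and the difference at nic10 was -1.01 (SE 0.49, adjusted p = 0.412). SOCS3, another feedback inhibitor of cytokine receptors, also named after its values were seen, was at 3.54, 24.6 and 69.7 FPKM in nic10 livers against 2.31 to 3.31 in controls (2.42, SE 0.73, adjusted p = 0.161).

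Of the targets, ERO1A, an oxidase of the endoplasmic reticulum, stood at 8.58, 11.1 and 6.75 FPKM in control livers, 26.4, 18.3 and 30.3 at nic10 and 15.6, 13.9 and 18.3 at nic50. All exposed livers lay above all controls and, as for EPO, nic10 was the highest group. Of all genes 9.54% were likewise above control without overlap at nic10 and 26.8% at nic50. The difference was 1.40 at nic10 (SE 0.23, limma adjusted p = 0.0224) and 0.80 at nic50 (SE 0.23, adjusted p = 0.0789). The call at nic10 was lost in 9 of 17 alternatives, of which 2 are the same fit. Among them were the fits without control liver 2 (adjusted p = 0.0592), control liver 3 (0.106) or nic10 liver 3 (0.063), with no filter on level (0.0584), with only the groups compared (0.0964) and with alike livers averaged (0.264). The difference was 1.41 against control liver 1 alone (adjusted p = 0.19).

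PLOD2 (LOC102445695), a lysyl hydroxylase of collagen, stood at 0.931, 0.192 and 0.132 FPKM in control livers, 1.13, 0.460 and 0.185 at nic10 and 6.90, 7.12 and 8.14 at nic50. It was high in the nic50 livers alone, by 2.61 over control (SE 0.26, limma adjusted p = 0.000753), and it passed the filter on level only through that group, so its place among the called genes is not independent of its nic50 level. With no filter the adjusted p was 0.0047, and against control liver 1 alone the difference was 2.12 (adjusted p = 0.0317). EDN1, the vasoconstrictor endothelin, differed by 1.34 at nic50 (SE 0.31, adjusted p = 0.0378), and PDK1, a kinase that inhibits pyruvate dehydrogenase, by 0.85 (SE 0.21, adjusted p = 0.0494). EDN1 stood at 0.648, 1.20 and 1.29 FPKM in control livers and 3.83, 4.08 and 4.50 at nic50. PDK1 stood at 4.26, 5.25 and 5.20 FPKM in control livers and 9.34, 9.22 and 10.2 at nic50. Groups did not overlap for either gene, as for 26.8% of all genes above control at nic50. Neither passed when any 1 of the 6 libraries was left out, with adjusted p-values of 0.0792 to 0.174 for EDN1 and 0.0751 to 0.224 for PDK1. EDN1 differed by 1.64 (adjusted p = 0.0891) and PDK1 by 1.01 (0.0956) against control liver 1 alone. Over all alternatives EDN1 passed in 4 of 16 and PDK1 in 2 of 17.

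**Figure D4:**
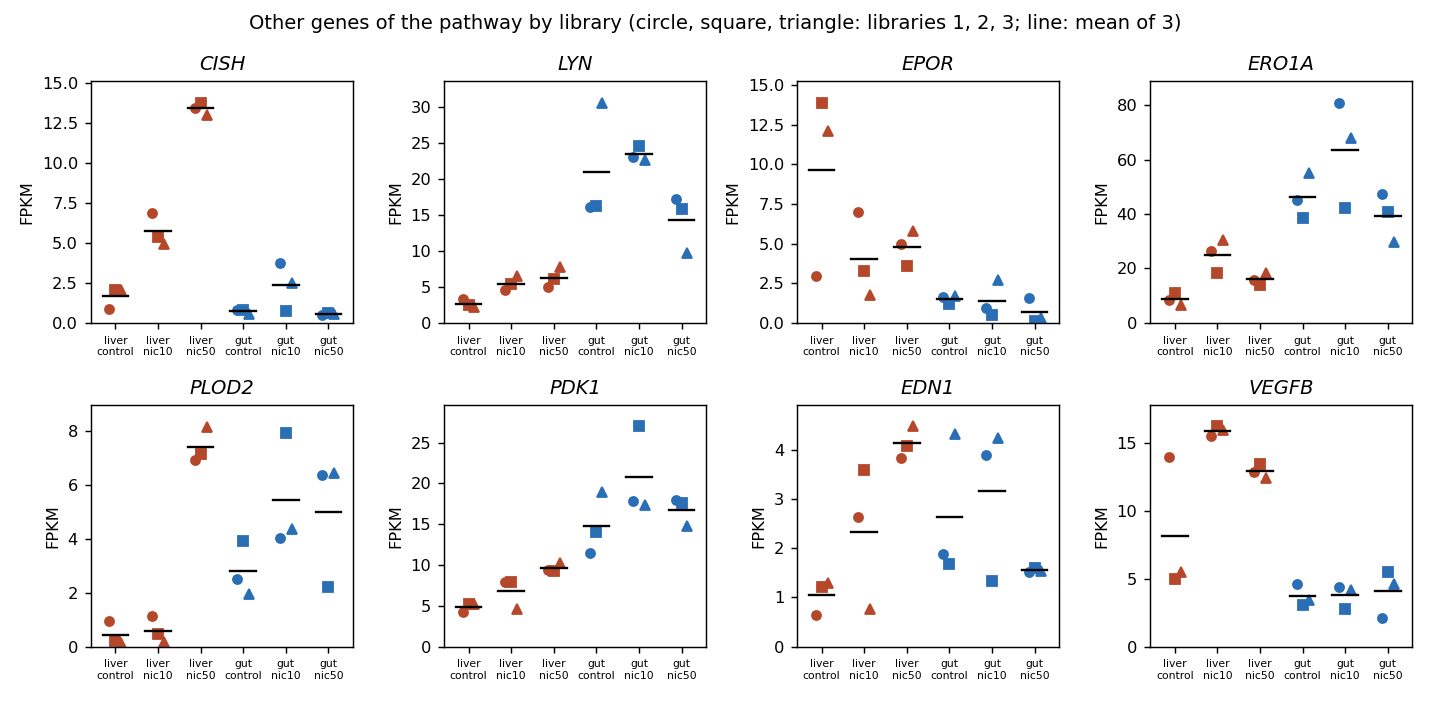
FPKM in each of the 18 libraries for 8 other genes of the pathway, drawn as for the members with linear axes from 0. CISH rises from at most 2.08 FPKM in control livers to at least 4.96 at nic10 and 13.0 at nic50, PLOD2 is high in nic50 livers alone among livers, and EPOR and VEGFB split control liver 1 from control livers 2 and 3.

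By list, the 16 HIF regulators tested in liver had 0 past the test at either dose, with medians of 0.17 at nic10 and 0.09 at nic50. An unadjusted p under 0.05 was held by 1 and 3 of them, against 1475 and 2220 of 10892 genes. The 14 glycolytic targets had 0 and 1 past it, the latter PDK1, with medians of 0.04 and 0.07. The 7 angiogenic genes had 0 and 1, the latter EDN1, with medians of -0.01 and 0.56. The 30 other targets had 1 at each dose, ERO1A and PLOD2, with medians of 0.20 and 0.25, against 0.04 and 0.13 for all genes. At each dose 23 of these 30 were positive and 9 had an unadjusted p under 0.05. Such a p was held by 2 of the 14 glycolytic targets and 3 of the 12 EPO signalling genes at each dose. Among the 7 angiogenic genes it was held by 1 at nic10 and 2 at nic50. Over the 5 lists 16 and 19 of 79 held one, against 1475 and 2220 of 10892 genes. VEGFB, a relative of VEGFA named after its values were seen, was at 13.9, 4.99 and 5.49 FPKM in control livers and 15.5, 16.2 and 15.9 at nic10 (1.02, SE 0.30, limma adjusted p = 0.152). Control liver 1 was the control nearest to the exposed livers for VEGFB, and the farthest from the nic50 livers for HIF1A, CISH, EDN1 and PDK1.

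**Figure D5:**
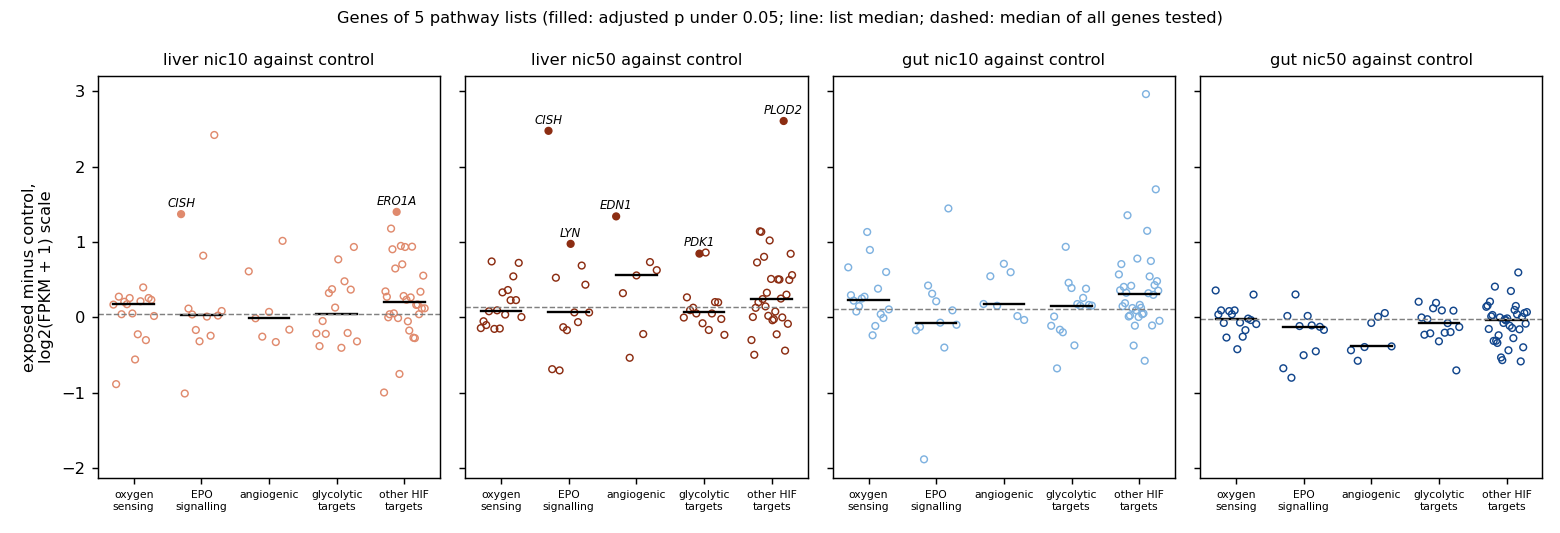
Difference from control on the log2(FPKM + 1) scale for each tested gene of the 5 lists, 1 point per gene, in 2 tissues at 2 doses; filled points passed the test and are named, solid lines are list medians and the dashed line is the median of all genes. The named genes, 2 at nic10 and 5 at nic50, are all above 0 and all in liver. In gut 0.174% of all genes passed at nic10 and 0.0238% at nic50.

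In gut 83 of the 102 matched genes were tested with limma, and 0 passed in either direction at nic10 or nic50. Of all genes tested in gut 0.174% passed at nic10 and 0.0238% at nic50. At nic10 16 of the 83 had an unadjusted p under 0.05, against 1874 of 12617 genes. A positive difference was found for 63 of 83, with a median of 0.18 against 0.11 for all genes. At nic50 1 of the 83 had an unadjusted p under 0.05, against 820 of 12617 genes. There 32 of 83 were positive, with a median of -0.07 against -0.02. For the 34 other HIF targets the median at nic10 was 0.31. CISH in gut was at 0.835, 0.797 and 0.587 FPKM in controls, 3.76, 0.773 and 2.49 at nic10 and 0.502, 0.641 and 0.525 at nic50. It stayed below 1 FPKM at nic50, where it was 13.0 or more in liver, and the difference between the tissue responses was 2.63 (SE 0.39, adjusted p = 0.00402). Of 88 pathway genes 1, CISH, passed the test of that difference at nic50, where 0.839% of all genes passed as higher. CISH was known to have passed in liver when the lists were drawn up. The difference uses the same livers, so its p is not independent support, and it was not followed for CISH under the alternatives. At nic10 0 of 88 passed, with 15 at an unadjusted p under 0.05, against 1325 of 13475 genes.

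Genes with patterns like the other members were taken in the same way, as descriptions over 9 libraries. In liver, HIF1A ran closest with the cotransporter gene SLC12A7 (LOC102448265, r = 0.997), EPAS1 with PPM1D (0.99), a phosphatase of the p53 response, EGLN1 with TMED7 (0.98) and VEGFA with PPP6R2 (0.99). In gut, HIF1A ran closest with LOX (0.98), a collagen crosslinking enzyme and itself a HIF target, EPAS1 with APP (0.97), EGLN1 with the transfer RNA synthetase EPRS (0.97), EGLN3 with GTF2IRD1 (0.98) and VEGFA with POLDIP3 (0.98). No gene was the closest to the same member in both tissues.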

How the data were processed

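Liver RNA and gut RNA were made into 9 libraries each with a VAHTS Universal V6 kit, per the labels' protocols. The authors deposited 1 table of FPKM values, per the file headers, which holds 18 libraries as columns and 24880 features as rows. CASAVA is named per the submitters' processing notes, while the genome build is not given in the sources used here, nor are the aligner, the counting tool and its use of strand. Reads of near-identical gene copies may be split. FPKM holds no read counts, so no counting interval is given. Symbols came from the table, and for 975 numbered features from the RefSeq annotation of assembly ASM4963464v1, used for names and neighbours and not for coordinates.

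The members and all gene lists were chosen with earlier results of these data known, so no p is given over a list alone. After 1 was added to each FPKM, log2 values were tested in R 4.3.3 by limma 3.58.1 with a trend in the variance, for genes at 1 FPKM or more in at least 3 libraries of a fit. This scale understates the change of low genes. Each tissue was fitted alone with its 3 dose groups, and all 18 libraries together for differences between tissues and between their responses. Tests were two-sided and adjusted by Benjamini-Hochberg over all genes of a comparison, with a threshold of 0.05. The fits were tested on simulated data.

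The rule for named genes took all members, up to 4 genes of a list past the test in each direction per comparison with control, up to 3 leading genes of a cell type list, and the 5 genes most alike to each member, of which the report prints the first for members other than EPO. Genes outside it are stated as such. The labels do not tie library numbers to animals. Of 9 same-numbered pairs between liver groups 5 correlated over 0.1, and of 9 in gut 2 did. Since not every pair did, the numbers were not used as pairs. Alternatives were quantile normalization, rescaling by trimmed means, a pseudocount of 0.1, a filter at a mean of 5 FPKM or none, weights per library, a replicate block, only the groups compared, averaging alike livers (the 3 nic50 livers to 1 and control livers 2 and 3 to 1) and the omission of 1 library at a time. Chosen after seeing the data were control liver 1 as the only control liver, nic10 gut 2 as the only nic10 gut, a fit without the 5 libraries that hold the 21-feature set (each at 1 FPKM or more in all 5 and under 0.5 in the other 13), and counts over the 5 pathway lists under every alternative. For liver against its own controls, control liver 1 as the only control equals the fit without the 5 libraries. This 1 fit is counted as 2 alternatives.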

Additional observations from a re-analysis of the deposited data

Results flagged for a closer look

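CISH, the feedback inhibitor of cytokine receptors, passed the test of the difference between tissue responses at nic50 in the main fit. Its liver change exceeded its gut change by 2.63 on the log2(FPKM + 1) scale (SE 0.39, limma adjusted p = 0.00402). CISH was known to have passed in liver when the lists were drawn up. This difference uses the same livers, so its p is not independent support. It was not followed for CISH under the alternatives, so how far it depends on the processing is not known. The 3 nic50 livers stood at 13.0 to 13.7 FPKM against 0.851 to 2.08 in control livers, while the 3 nic50 guts stood at 0.502 to 0.641 FPKM against 0.587 to 0.835 in control guts.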

How the results depend on the processing

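EPO at nic10 in liver was positive under all 17 alternatives, which adds no support because this contrast chose EPO. The difference moved beyond the spread between libraries in 2, to 1.10 with control liver 1 as the only control or without the 5 libraries that hold the 21-feature set. In liver these 2 leave out the same libraries and are 1 fit. The count of members past the test between nic50 and control was 0 in liver under 17 alternatives and 0 in gut under 15. Library weights gave 1 between nic50 and nic10 livers, 2 in nic10 guts, 2 between nic50 and nic10 guts and 2 for the tissue difference at nic10, each 0 otherwise. With these weights 4797 of 10892, 1838 of 12617, 1092 of 12617 and 2719 of 13475 genes passed in the same comparisons. Between tissues the count in controls was 1 in place of 2 with a mean of at least 5 FPKM, with control liver 1 alone and without the 5 libraries, and 3 with library weights, with a replicate block and after rescaling by trimmed means. At nic50 it was 5 in place of 3 after rescaling by trimmed means, 4 with quantile normalization, and 2 with a mean of at least 5 FPKM and with only the groups compared. The main counts are of 5 members tested in controls and 6 at nic50, where 64.1% and 59.6% of all genes passed. After rescaling by trimmed means 7081 of 13475 genes passed at nic50.

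Counts over the 5 pathway lists were unstable. For nic10 livers (2) they were 0 with no filter, with only the groups compared and with alike livers averaged, 1 with a replicate block, with control liver 1 alone and without the 5 libraries, 26 with library weights, and 0 to 9 without 1 library. For nic50 livers (5) they were 3 with a pseudocount of 0.1, with no filter, with control liver 1 alone and without the 5 libraries, 1 with a mean of at least 5 FPKM, 2 after rescaling by trimmed means, 26 with library weights, 12 with only the groups compared, 0 with alike livers averaged, and 2 to 5 without 1 library. For nic10 guts (0) they were 17 with library weights and 0 to 5 without 1 library, the 5 without nic10 gut 2. Averaging alike livers leaves a lone nic50 value, assumed to vary like the others. All-gene counts ran from 11 to 2804 in nic10 livers (116 as reported) and from 2 to 3373 in nic50 livers (513). The cause of this range was not tested. With library weights 2804 of 10892 genes passed in nic10 livers, 3373 of 10892 in nic50 livers and 1838 of 12617 in nic10 guts. With only the groups compared 1137 of 10492 genes passed in nic50 livers. Without nic10 gut 2, 190 of 12457 genes passed in nic10 guts. Same-numbered libraries correlated with a median of 0.115 in liver, against -0.0893 for other pairs, and -0.0371 in gut, against -0.00539. That is a hint of pairing in liver from the data, not the design. The replicate block gave 1 pathway gene in nic10 livers, 4 in nic50 livers and 0 in guts. With it ERO1A at nic10 (limma adjusted p = 0.0516) and PDK1 at nic50 (0.0641) no longer passed, and EGLN1 between control tissues did (0.0405). No other call changed among the members and the named pathway genes that passed in liver against control. CISH between nic50 and nic10 livers and between the tissue responses was not followed under the block.

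Sign changes occurred for values that had not passed. Leaving out 1 library at a time gave -0.14 to 0.28 for EPAS1 in nic10 livers, -0.37 to 0.065 for VEGFA in nic50 livers, -0.22 to 0.33 for HIF1A and -0.16 to 0.18 for EGLN1 between nic50 and nic10 livers. It gave -0.053 to 0.15 for HIF1A and -0.028 to 0.39 for EGLN1 in nic10 guts, -0.65 to 0.44 for EPAS1 and -0.39 to 0.081 for VEGFA in nic50 guts, and -0.95 to 0.14 for EPAS1 between nic50 and nic10 guts. For liver against gut it gave -0.068 to 0.40 for VEGFA in controls, and -0.53 to 0.56 for EPAS1 and -0.049 to 0.37 for VEGFA at nic50. For the tissue difference it gave -0.44 to 0.062 for EPAS1 at nic10 and -0.19 to 0.28 for VEGFA at nic50.

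Library weights gave -0.014 for EPAS1 in nic10 livers, -0.11 for HIF1A between nic50 and nic10 livers, -0.11 for EPAS1 between tissues at nic50 and -0.20 for the VEGFA tissue difference at nic50. Rescaling by trimmed means gave -0.015 for HIF1A between nic50 and nic10 livers, -0.076 for HIF1A in nic10 guts, 0.068 for EPAS1 and 0.15 for EGLN1 between control tissues, and -0.13 for the VEGFA tissue difference at nic50. Quantile normalization gave -0.020 for HIF1A between nic50 and nic10 livers and -0.076 for that VEGFA difference. With alike livers averaged VEGFA stood at 0.021 in nic50 livers and EGLN1 at 0.0049 between nic50 and nic10 livers. With control liver 1 alone VEGFA stood at 0.41 in nic50 livers and -0.38 between control tissues, and the EPAS1 tissue difference at nic10 at 0.34. With nic10 gut 2 alone HIF1A stood at -0.079 and EGLN1 at -0.33 in nic10 guts. Without the 5 libraries VEGFA stood at 0.41 in nic50 livers and -0.35 between control tissues, EGLN1 at -0.011 in nic10 guts, EGLN3 at -0.0059 in nic50 guts and 0.0059 for its tissue difference, and the EPAS1 tissue difference at nic10 at 0.58. Unknown depth limits the low values, EGLN3 and EPO in gut.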
